A study of Mus musculus with 39 samples.

Results

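Enteroendocrine cells are scattered hormone cells of the gut epithelium, and 8 genes of their secretory granules, of serotonin synthesis and of their differentiation were followed in mouse duodenum: Chga, Chgb, Scg2, Scg3, Scg5, Pcsk1, Tph1 and Neurod1. They were taken by gene symbol, with earlier results of these data known, and 8 of 8 were among the 16358 genes counted in 39 bulk RNA libraries. Every library came from whole duodenum of wild-type C57BL/6 males aged 8 weeks that carried a steel cannula in the right lateral ventricle of the brain. The Saline-water group (14 libraries) drank plain water and received saline through the cannula, and the Leptin-water group (13 libraries) drank plain water and received 3 µg of leptin, a hormone of fat tissue that signals energy stores to the hypothalamus. The Saline-antibiotic and Leptin-antibiotic groups (6 libraries each) had the same injections after 48 h of ampicillin at 1 g/L and neomycin at 0.5 g/L in the drinking water. In all groups food was withheld for 2 h before the injection, the injection fell 3 days after the cannula was placed, and tissue was taken 2 h after it. Library names carry the prefix M (8 Saline-water and 7 Leptin-water libraries) or MT (6 libraries of each of the 4 groups). The labels do not say what the prefixes stand for, and the libraries are called set M and set MT here. The antibiotic groups are in set MT only. The labels number replicates without stating that each is a separate animal, so p-values measure the spread between libraries.

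Enteroendocrine cells store peptide hormones, and in enterochromaffin cells serotonin, in dense-core granules that are released in response to nutrients, microbial products and nerve signals. Granins (the chromogranins Chga and Chgb and the secretogranins) are acidic proteins packed into these granules, the convertase Pcsk1 cuts prohormones inside them, and Tph1 carries out the rate-limiting step of serotonin synthesis in the gut. The transcription factor Neurod1 acts during enteroendocrine differentiation. Granins and Pcsk1 are also made by neurons, including those of the gut wall, and by pancreatic islets, and Tph1 also by mast cells.

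Granin genes and Pcsk1 are known for cAMP response elements, sites bound by CREB-type factors, so the promoters of the 8 genes were searched for that motif. The RefSeq promoters (GRCm38.p6, 250 bases before to 50 after the start site) held all 8 genes. The full element TGACGTCA, searched on both strands, was in 3 of 8 promoters, those of Chgb, Scg2 and Pcsk1, and in 1.80% of 32534 promoters of 300 bases. Its part TGACG on either strand, which every full element also contains, was in 7 of 8 promoters, all but that of Neurod1, and in 20.9% of all promoters. The E-box CANNTG, the site type of Neurod1 and related factors, was in 5 of 8 promoters and in 72.3% of all promoters. These counts use the first start site listed for each gene. A further listed Tph1 start site, with its promoter at chr7:46667328-46667627 on the minus strand, had an E-box and 3 copies of TGACG, and with it 6 of 8 genes had an E-box. For the 5 genes on which the results below turn, 30 bases around the element are shown, 5′ to 3′ on the strand of the gene, with the element or its part in capitals.
Chga, chr12:102554884-102554913, plus strand: gggggcggtcctaTGACGtaatttcctggg
Chgb, chr2:132781559-132781588, plus strand: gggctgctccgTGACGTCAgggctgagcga
Scg2, chr1:79440076-79440105, minus strand: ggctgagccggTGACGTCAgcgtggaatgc
Pcsk1, chr13:75089768-75089797, plus strand: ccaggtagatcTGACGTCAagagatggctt
Tph1, chr7:46672557-46672586, minus strand: aaaaatgtgcgtgTGACGctgcgtgtgcta
In Chgb, Scg2 and Pcsk1 the element began at −72, −68 and −78 from the RefSeq start site, and in Chga and Tph1 the shorter part began at −44 and −36. GENCODE vM21 places an exon of the gene over the windows of Chgb and Scg2, and the windows of Chga, Pcsk1 and Tph1 lie outside its gene bounds. These matches describe the letters of the windows, and binding was not measured.

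The deposited libraries held 30207536 to 67870777 counts (median 48282125). As a check that gut epithelium was present, all 8 genes of an epithelium list were measured and their mean was 8.73 to 9.17 log2 CPM (counts scaled to library size with TMM factors) in every library. The segment of gut was not checked with this list. The mean of 10 stomach and Brunner gland genes varied more, from 3.11 log2 CPM in Leptin-water 7 of set M to 9.15 in Leptin-antibiotic 5. In 6 libraries a list of 12 exocrine pancreas genes stood at 5.69 to 6.61 log2 CPM, against −3.34 to 3.57 in the other libraries. These 6, called high in pancreas genes below, were Leptin-water 6 of set M, and Leptin-water 10, Saline-antibiotic 1, 2 and 5 and Leptin-antibiotic 3 of set MT. Of 10 islet genes only Ucn3 and Pdx1 were in the table and of 10 mast cell genes 3, so the insulin genes and the mast cell tryptases were not analysed here. All 15 genes of an enteric neuron list were measured (Snap25 among them, which is also in the granule list below), with means of 0.28 to 1.498 log2 CPM.

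Per length, the chromogranins were the most abundant of the 8 transcripts. The median level over 39 libraries was 22.1 RPKM for Chgb (CPM per kilobase of exon), 12.0 RPKM for Chga, 5.21 RPKM for Scg2 and 3.38 RPKM for Tph1. Pcsk1 had a median of 1.69 RPKM, Neurod1 1.29 RPKM, Scg3 0.738 RPKM and Scg5 0.723 RPKM. The order held library by library at most steps. Chgb was above Chga, Chga above Scg2 and Tph1 above Pcsk1 in 39 of 39 libraries, and Scg2 was above Tph1 in 36. Pcsk1 exceeded Neurod1 in 38 libraries and Neurod1 exceeded Scg3 in 38. Scg3 and Scg5 did not separate, with Scg3 the higher in 17 of 39 libraries. The highest library was between 2.23 times (Pcsk1) and 3.57 times (Scg2) the lowest for any of the 8 genes. Scg5 rested on the fewest reads, 24 to 92 counts per library, and Scg3 on 51 to 151. For leptin on water, Scg5 had the largest SE in both sets (0.170 in set M and 0.232 in set MT). The SE of Scg3 (0.133 and 0.147) was below that of Scg2 in set M (0.154) and of Chga in set MT (0.152). Chgb had 1315 to 4606 counts and Chga 787 to 3093.

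**Figure D1:**
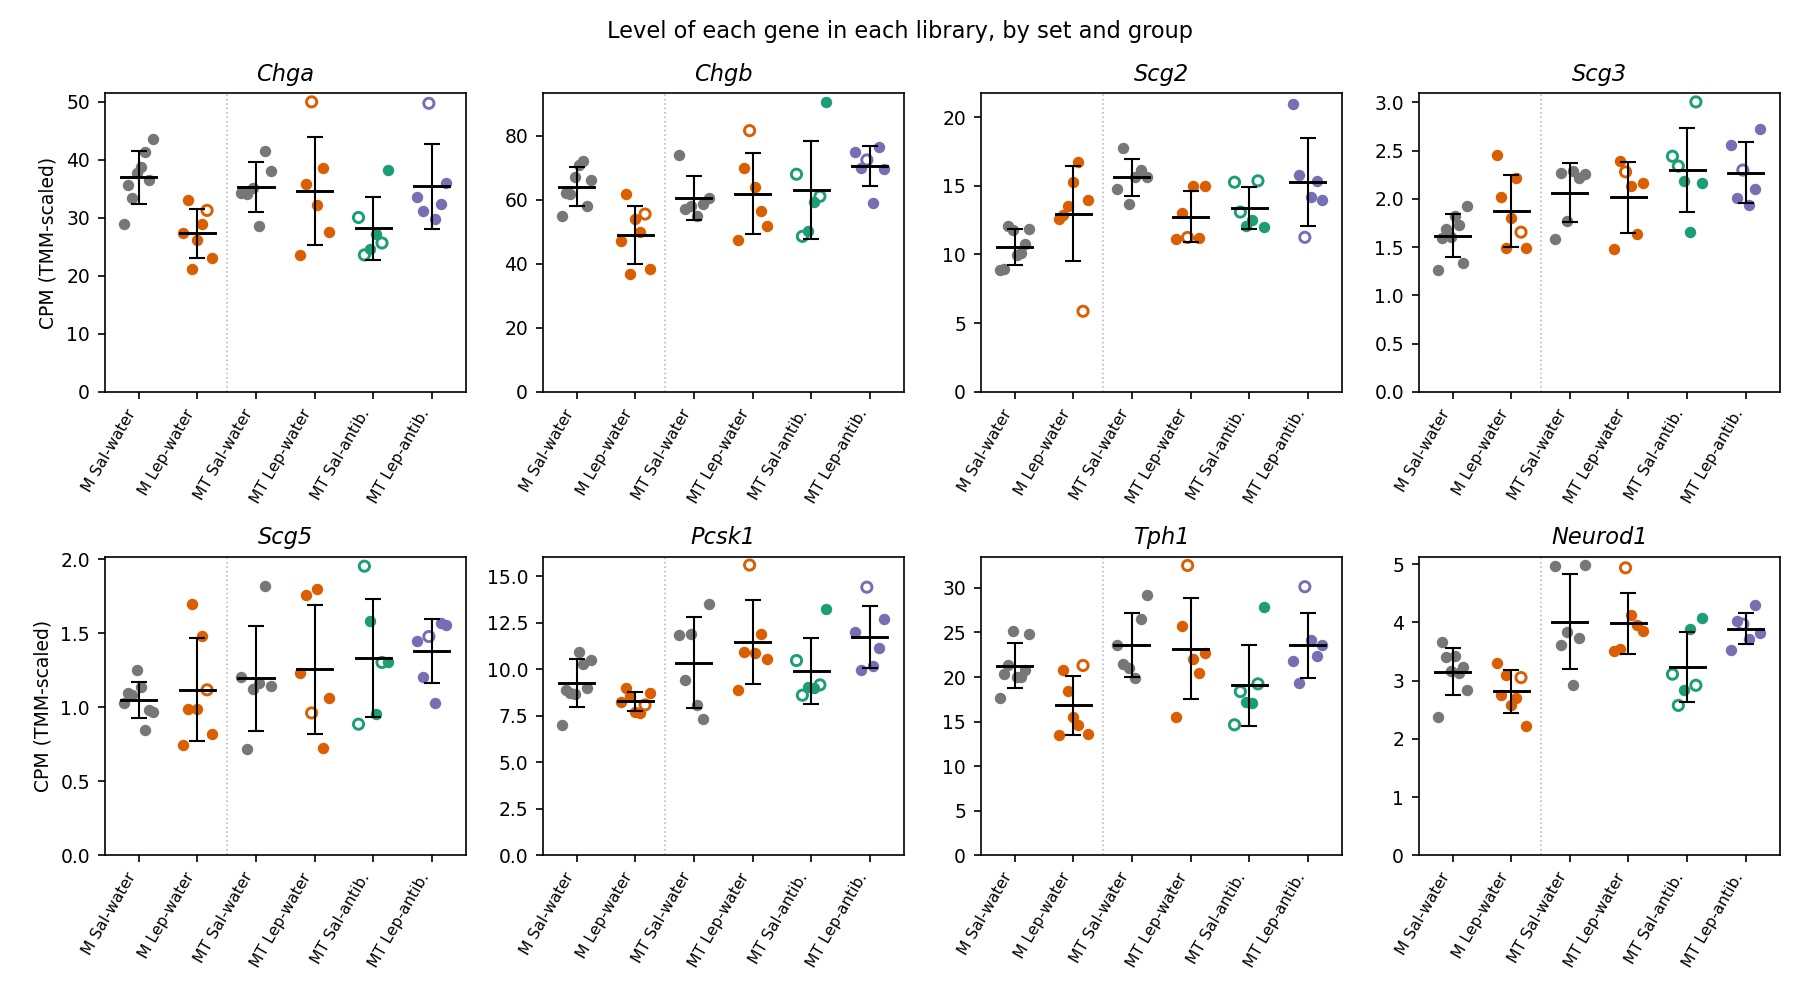
Level of each of the 8 genes in every library (y axis, TMM-scaled CPM), by set and group (x axis, Sal for saline, Lep for leptin, antib. for antibiotic). Points are libraries, open points are the 6 libraries high in pancreas genes, bars are mean ± SD, and the dotted line parts set M from set MT. In set M, 4 of 7 leptin libraries are below every saline library for Chga and 5 of 7 for Chgb, while 6 of 7 are above every saline library for Scg2.

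The first comparison asked whether leptin in the brain ventricle was followed within 2 h by a different level of these transcripts in mice on plain water. In set M the means of Chga, Chgb and Tph1 were lower with leptin and that of Scg2 was higher, but 0 of 8 genes passed an adjusted p of 0.05 by edgeR's quasi-likelihood test. Over all genes that test called 0.0306% (5 of 16333). Of the 8 genes, 3 had an unadjusted p under 0.05, and so did 14.9% of all genes (2433 of 16333). DESeq2 called 2 of the 8, Chga and Chgb, against 1.73% of all genes (277 of 16016), so the call on these genes depended on the tool. In bulk tissue, fewer enteroendocrine cells and less RNA per cell cannot be told apart.

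Chga, the general marker granin of enteroendocrine cells (GRCm38 chromosome 12, 102554969 to 102565028, plus strand), ranged from 28.9 to 43.5 CPM with saline in set M (median 37.1) and from 21.2 to 33.1 CPM with leptin (median 27.5). All 7 leptin libraries were below the saline median and 4 were below every saline library, while the groups overlapped. The means were 37.0 ± 4.55 (SD, n = 8) and 27.3 ± 4.28 CPM (SD, n = 7). The log2 fold change was −0.44 (SE 0.10, edgeR adjusted p = 0.103, DESeq2 adjusted p = 0.00341). Leaving out Leptin-water 6, which is high in pancreas genes, gave −0.47 and an edgeR adjusted p of 0.0368, with 0.79% of all genes called (129 of 16336).

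Chgb, the granin with the highest level (chromosome 2, 132781278 to 132795079, plus strand), ranged from 54.9 to 72.2 CPM with saline (median 64.1) and from 37.0 to 61.7 CPM with leptin (median 49.9). All 7 leptin libraries lay below the saline median and 5 below every saline library. The log2 fold change was −0.39 (SE 0.10, edgeR adjusted p = 0.129, DESeq2 adjusted p = 0.0152).

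Tph1, the serotonin-synthesis gene (chromosome 7, 46644641 to 46672537, minus strand), ranged from 17.7 to 25.2 CPM with saline (median 20.6) and from 13.5 to 21.3 CPM with leptin (median 15.5). Of the 7 leptin libraries 5 were below the saline median and 4 were below every saline library. The log2 fold change was −0.34 (SE 0.11, edgeR adjusted p = 0.175, DESeq2 adjusted p = 0.0688). The 3 mast cell genes measured had a median log2 fold change of −0.60 in the same comparison. Of these, 0 passed by edgeR, 2 had an unadjusted p under 0.05 and DESeq2 called Mcpt2. Their part in the Tph1 value was not tested.

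Scg2, the precursor of secretoneurin (chromosome 1, 79434669 to 79440120, minus strand), showed the opposite order. It ranged from 8.88 to 12.1 CPM with saline (median 10.4) and from 5.87 to 16.7 CPM with leptin (median 13.6). Of 7 leptin libraries, 6 were above every saline library, and the remaining one, Leptin-water 6, was below all of them. The log2 fold change was 0.30 (SE 0.15, edgeR adjusted p = 0.375), and without Leptin-water 6 it was 0.42 with an adjusted p of 0.0368. Genes of the gut wall went the same way. In this comparison 14 of 15 genes of the enteric neuron list were positive with a median log2 fold change of 0.47, 10 at an unadjusted p under 0.05, 0 called by edgeR and 1, Nos1, by DESeq2. Its mean level was 0.44 to 1.14 log2 CPM with saline and 0.28 to 1.498 with leptin, lowest in Leptin-water 6. A smooth muscle list had 6 of 6 genes positive (median 0.44, 3 at an unadjusted p under 0.05, 0 called by edgeR or DESeq2), and a list of stomach and Brunner gland genes had 0 of 10 positive (median −0.44, 1 at an unadjusted p under 0.05, 0 called by either tool). The part of the smooth muscle and stomach lists in the Scg2 value was not tested. With the enteric neuron, exocrine pancreas and epithelium means as covariates, Scg2 was at −0.060, Chga at −0.50, Chgb at −0.40 and Tph1 at −0.48 (edgeR adjusted p = 0.893, 0.211, 0.292 and 0.243). These means entered the fit together. The enteric neuron mean itself differed between the groups, at 0.723 log2 CPM with saline and 1.117 with leptin. The fit therefore cannot assign the Scg2 value to a single list or part it from the group difference.

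The other 4 genes differed less between the groups of set M. Pcsk1, the prohormone convertase (chromosome 13, 75089826 to 75134861, plus strand), was at 9.25 ± 1.28 CPM with saline and 8.27 ± 0.508 CPM with leptin, and 6 of 7 leptin libraries were below the saline median (log2 −0.16, SE 0.08, edgeR adjusted p = 0.365). Neurod1 (chromosome 2, 79452521 to 79456751, minus strand) was at 3.16 ± 0.401 and 2.82 ± 0.365 CPM (log2 −0.16, adjusted p = 0.471). Scg3, a granule membrane protein that binds Chga (chromosome 9, 75643189 to 75684056, minus strand), was at 1.62 ± 0.225 and 1.88 ± 0.371 CPM (log2 0.22, adjusted p = 0.447). Its value, like that of Scg2, changed sign with the tissue means as covariates (−0.033). Scg5, the chaperone of the convertase Pcsk2 (chromosome 2, 113776362 to 113829121, minus strand), was at 1.05 ± 0.122 and 1.12 ± 0.349 CPM, a difference smaller than its SE (adjusted p = 0.827).

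In set MT 0 of 8 genes passed for leptin on water, 1 had an unadjusted p under 0.05 (7.31% of all genes), DESeq2 called 0, and edgeR called 0% of all genes (0 of 16340). Chga ranged from 28.6 to 41.5 CPM with saline (median 34.7) and from 23.6 to 50.0 CPM with leptin (median 34.1), and the leptin libraries fell on both sides of the saline median, 3 below and 3 above. Chgb and Tph1 were likewise spread around their saline medians, 3 libraries on each side. All genes but Scg2 had log2 fold changes between −0.03 and 0.15, each smaller than its SE. The highest Chga value of the leptin group was that of Leptin-water 10, which is high in pancreas genes. Without the libraries high in pancreas genes Chga was at −0.15 and Tph1 at −0.14 (edgeR adjusted p = 0.883 and 0.899), and with the tissue means as covariates Chga was at −0.22 (adjusted p = 0.674). Scg2 ranged from 13.7 to 17.7 CPM with saline (median 15.6) and from 11.1 to 14.99 CPM with leptin (median 12.1). All 6 leptin libraries were below its saline median and 4 were below every saline library (log2 −0.28, SE 0.12, edgeR adjusted p = 0.643). The enteric neuron list had 14 of 15 genes negative in that comparison, with a median of −0.32, 4 genes at an unadjusted p under 0.05 and 0 called by edgeR or DESeq2. The smooth muscle list had 0 of 6 positive (median −0.35) and the stomach and Brunner gland list 8 of 10 (median 0.35), with 4 genes of each at an unadjusted p under 0.05 and 0 called by either tool.

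The leptin effect on water was compared directly between the sets in the 27 water libraries. The difference, set MT minus set M, was 0.43 (SE 0.16) for Chgb, 0.42 (SE 0.18) for Chga, 0.32 for Tph1, 0.32 for Pcsk1 and −0.57 (SE 0.20) for Scg2. It was −0.24 (SE 0.20) for Scg3 and smaller than its SE for Scg5 and Neurod1. Of the 8 genes, 3 had an unadjusted p under 0.05, against 9.86% of all genes, and 0 passed after adjustment by edgeR, against 0.0428% of all genes (7 of 16356), or by DESeq2, against 0.459% (75 of 16351). The edgeR adjusted p-values of Chgb, Chga and Scg2 were 0.341, 0.413 and 0.298. Without Leptin-water 6 the difference in Scg2 was −0.72 with an adjusted p of 0.0338, and 0.22% of all genes passed (36 of 16354). Without all libraries high in pancreas genes it was −0.66 with an adjusted p of 0.0531. With the tissue means as covariates it was −0.053 (adjusted p = 0.955). The smooth muscle list had 0 of 6 genes positive for this difference (median −0.77) and the stomach and Brunner gland list 9 of 10 (median 0.76), with 6 and 5 genes at an unadjusted p under 0.05 and 0 called by edgeR. DESeq2 called 2 of the stomach list, Sult1c2 and Tff1. When both sets were fitted together with set as a term, Chga was at −0.26 (SE 0.10, adjusted p = 0.277), Chgb at −0.20, Tph1 at −0.20, Scg3 at 0.11 (SE 0.10) and Neurod1 at −0.097, and Scg2, Scg5 and Pcsk1 differed by less than their SE. In that fit 0 of 8 genes passed by either tool, 3 had an unadjusted p under 0.05 (11.4% of all genes), and edgeR called 0.312% of all genes (51 of 16356).

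**Figure D2:**
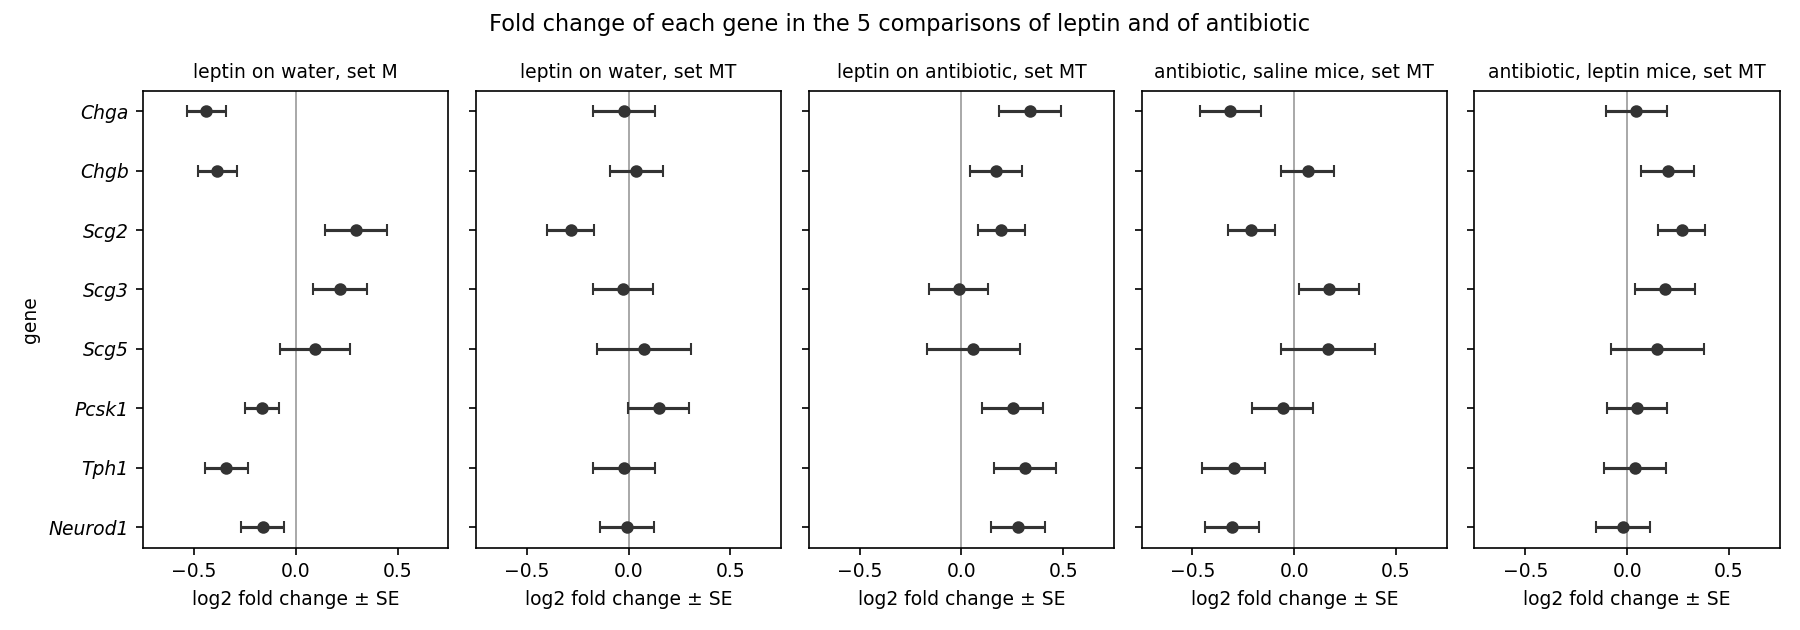
Log2 fold change (x axis, points, with SE as bars) of the 8 genes (y axis) for leptin on water in set M and in set MT, for leptin on antibiotic, and for antibiotic in saline and in leptin mice. Chga stands at −0.44 in set M, within its SE of 0 in set MT on water and at 0.34 on antibiotic, and no point passed an adjusted p of 0.05. Comparisons within set MT share groups of libraries, so their points are not independent.

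In mice on antibiotic, most of the 8 genes were higher with leptin than with saline by amounts that did not pass. The log2 fold change was positive for 7 of 8 genes with a median of 0.22, against 46.4% positive and a median of −0.02 over all genes. By edgeR 0 of 8 passed, 2 had an unadjusted p under 0.05 (17.2% of all genes) and DESeq2 called 0, while edgeR called 0.514% of all genes (84 of 16340). Chga ranged from 23.6 to 38.3 CPM with saline and antibiotic (median 26.4) and from 29.8 to 49.7 CPM with leptin and antibiotic (median 33.0). This is a log2 difference of 0.34 (SE 0.15, edgeR adjusted p = 0.254). Tph1 ranged from 14.7 to 27.8 CPM (median 17.8) and from 19.4 to 30.1 CPM (median 23.0), a log2 difference of 0.31 (SE 0.15, edgeR adjusted p = 0.296). Neurod1 was at 0.28 (adjusted p = 0.283) and Pcsk1 at 0.25 (adjusted p = 0.384). Scg2 was at 0.20 and Chgb at 0.17, while Scg3 and Scg5 differed by less than their SE. For Chga, Tph1, Pcsk1 and Neurod1 alike, 6 of 6 leptin libraries were above the median of the saline libraries, and the groups overlapped.

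Of the libraries high in pancreas genes, 3 were in the Saline-antibiotic and 1 in the Leptin-antibiotic group. Without these libraries Chga was at 0.12, Tph1 at 0.10, Neurod1 at 0.11 and Pcsk1 at 0.10, while Scg2 was at 0.40 instead of 0.20 (edgeR adjusted p = 0.368). Set against plain water, the leptin effect on antibiotic was higher by 0.48 (SE 0.16) for Scg2, 0.36 (SE 0.21) for Chga, 0.34 (SE 0.22) for Tph1 and 0.29 (SE 0.19) for Neurod1, and the other 4 genes differed by less than their SE. Of the 8 genes, 0 passed for that difference by edgeR or DESeq2 and 1 had an unadjusted p under 0.05. Over all genes 0% passed (0 of 16340), with 1043 genes at an unadjusted p under 0.05.

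Antibiotic was compared with plain water separately in saline and in leptin mice of set MT. In saline mice, Chga had a log2 fold change of −0.31 (SE 0.15, edgeR adjusted p = 0.401), Neurod1 of −0.31 (SE 0.13, adjusted p = 0.353), Tph1 of −0.30 (SE 0.15, adjusted p = 0.433) and Scg2 of −0.21 (SE 0.12, adjusted p = 0.459). The Saline-antibiotic libraries were mostly low, with 5 of 6 below every Saline-water library for Tph1 and 4 of 6 for Chga and for Scg2. The differences in Chgb, Scg5 and Pcsk1 were smaller than their SE, and Scg3 was at 0.17 (SE 0.15). By edgeR 0 of 8 genes passed, 2 had an unadjusted p under 0.05 (12.5% of all genes) and DESeq2 called 0, against 0.196% of all genes by edgeR (32 of 16340) and 1.12% by DESeq2 (183 of 16328). Without the libraries high in pancreas genes Chga was at −0.22, Tph1 at −0.17, Neurod1 at −0.15 and Scg2 at −0.34.

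In leptin mice, 7 of 8 genes were positive with antibiotic, against 47.8% of all genes. Their median log2 fold change was 0.10, against −0.01 over all genes. By either tool 0 of 8 passed, against 2.28% of all genes by edgeR (372 of 16340) and 5.22% by DESeq2 (787 of 15064). Only Scg2 had an unadjusted p under 0.05 (18.9% of all genes). It ranged from 11.1 to 14.99 CPM on water and from 11.3 to 21.0 CPM on antibiotic (median 14.8), and 3 of 6 antibiotic libraries were above every water library (log2 0.27, SE 0.12, adjusted p = 0.204). Chgb was at 0.20 and Scg3 at 0.19. Chga, Tph1, Pcsk1 and Neurod1 had log2 fold changes between −0.02 and 0.05, and these and that of Scg5 were smaller than their SE.

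The sets also differed at baseline. Between the Saline-water libraries of set MT and set M, 2 of 8 genes passed by edgeR, both higher in set MT, and DESeq2 called the same 2 genes. Of all genes, 17.3% passed by edgeR (2822 of 16356) and 19.6% by DESeq2 (3212 of 16351), so a difference between sets was common. Scg2 ranged from 8.88 to 12.1 CPM in set M and from 13.7 to 17.7 CPM in set MT (log2 0.55, SE 0.14, edgeR adjusted p = 0.00676). The enteric neuron list was higher as well, with 13 of 15 genes positive and 6 called, and with tissue means as covariates Scg2 was at 0.23 (adjusted p = 0.322). Neurod1 was at 3.16 ± 0.401 CPM in set M and 4.01 ± 0.814 CPM in set MT (log2 0.34, SE 0.12, adjusted p = 0.0472). Leaving out any of 11 of the 27 water libraries ended that call (Saline-water 1, 4, 6, 7, 8, 9, 11 and 14 and Leptin-water 2, 5 and 13), with edgeR adjusted p-values of 0.0517 to 0.128. Scg3, at 0.34 (SE 0.14, adjusted p = 0.0855), passed only when Saline-water 9 was left out (adjusted p = 0.042). Chga, Chgb and Scg5 differed between the sets by less than their SE, and Pcsk1 (0.16) and Tph1 (0.14) did not pass.

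Library-to-library variation, after removing the mean of each set and group, was shared by some of the 8 genes. Over 56 correlations (28 pairs in each set, two-sided permutation tests with 100000 resamples, adjusted over the 56), 8 pairs passed in set MT and 1 in set M. All of these pairs lay among Chga, Chgb, Pcsk1, Tph1 and Neurod1, and none had Scg2, Scg3 or Scg5 as a partner. In set M (15 libraries) the pair was Chga and Chgb, with r = 0.869 and rho = 0.821 (permutation p = 0.00012, adjusted p = 0.00406). Without the libraries farthest from the Chga median, a pair of them, r was 0.799. Scg3 had r = 0.654 with Chga and 0.586 with Chgb in set M (adjusted permutation p = 0.0688 and 0.169). There Chga had r = 0.517 with Pcsk1, 0.489 with Tph1 and 0.264 with Neurod1 (adjusted permutation p = 0.144, 0.337 and 0.601).

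In set MT (24 libraries) Chga correlated with Tph1 at r = 0.769 (permutation p = 0.00029, adjusted p = 0.00406) and rho = 0.514 (permutation p = 0.0194, adjusted p = 0.121), and r was 0.661 without the libraries farthest from the median. Chga and Chgb had r = 0.726 and rho = 0.650 (permutation p = 0.00043, adjusted p = 0.00482). Chga and Pcsk1 had r = 0.700, Pcsk1 and Neurod1 0.676, Chgb and Pcsk1 0.669, Chgb and Neurod1 0.659, Pcsk1 and Tph1 0.619, and Chga and Neurod1 0.548, with adjusted permutation p-values of 0.00406 to 0.0175. These p-values are those of r. By rho the pairs of Tph1 with Chga and with Pcsk1 did not pass (adjusted permutation p = 0.121 and 0.186), and the other 6 pairs did. Scg2 had r = −0.335 with Chga and 0.00441 with Chgb in set MT. Without the 5 libraries of set MT that are high in pancreas genes, 0 of the 8 pairs passed, although their r stayed between 0.450 and 0.758 over 19 libraries (adjusted permutation p-values of 0.0924 to 0.325). The Chga and Chgb pair of set M still passed over 14 libraries (r = 0.857, adjusted permutation p = 0.0179).

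**Figure D3:**
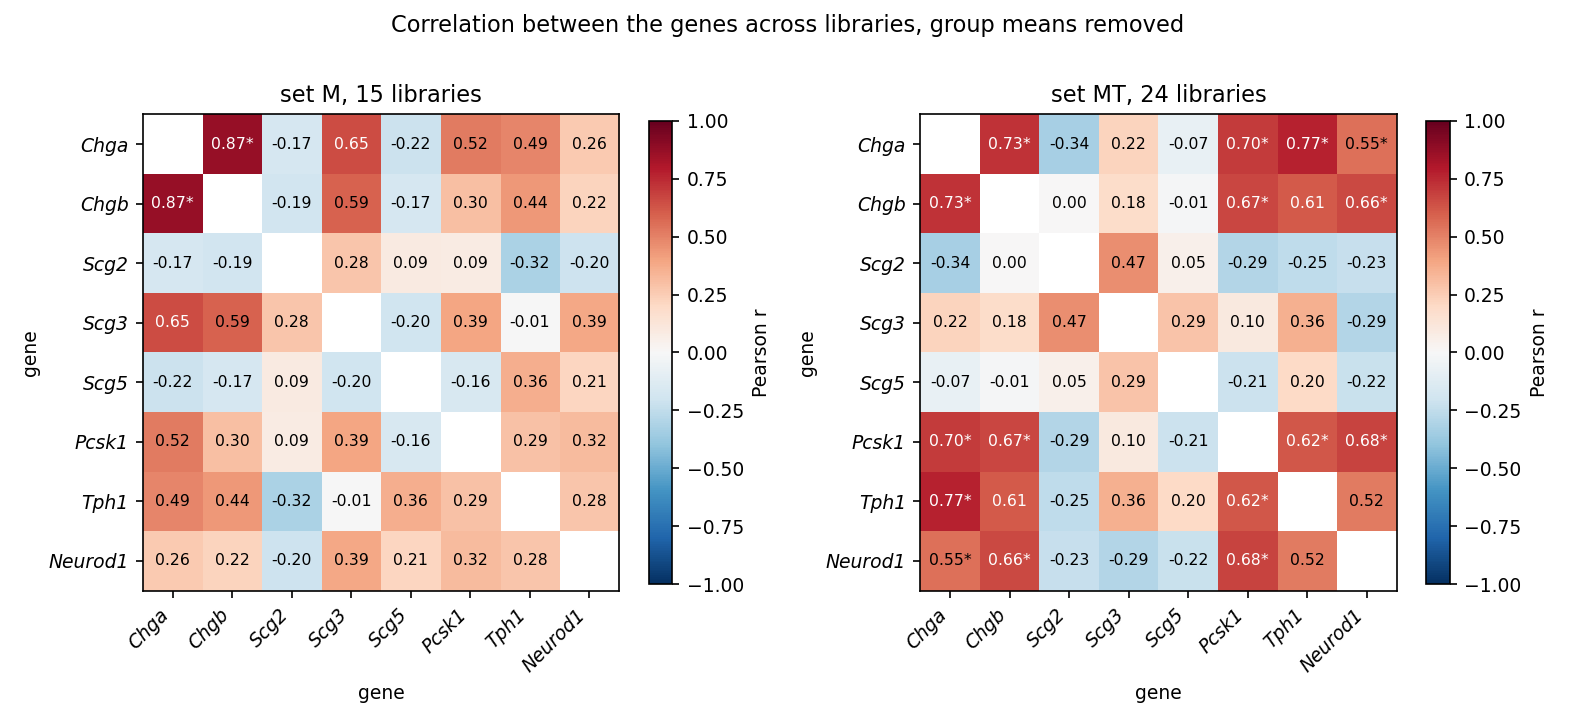
Pearson r between the 8 genes across libraries (both axes are genes, colour is r from −1 to 1), in set M (15 libraries) and set MT (24 libraries), on log2 CPM with set and group means removed. Stars mark pairs with an adjusted permutation p under 0.05. In set MT the positive block is made of Chga, Chgb, Pcsk1, Tph1 and Neurod1, while Scg2 is near or below 0 with each of them.

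The 8 genes were also set against the means of 6 tissue lists (enteric neuron, enteric glia, islet, exocrine pancreas, mast cell and epithelium), and 0 of 96 correlations passed. The islet mean rested on Ucn3 and Pdx1 only and stood at 3.34 to 4.11 log2 CPM in every library, whatever the exocrine pancreas level. The part of islet RNA in the values was therefore not tested. The r of Scg2 with the enteric neuron list was 0.874 in set M (rho = 0.811, permutation p = 0.0007) and 0.654 in set MT (rho = 0.632, permutation p = 0.00162). Without the libraries farthest from the Scg2 median, a pair in each set, r was 0.711 and 0.555. The adjusted permutation p-values were 0.0672 and 0.0758. Without the libraries high in pancreas genes r was 0.709 and 0.511 (adjusted permutation p = 0.435 and 0.976). The smooth muscle list was not among those correlated. Chga had r = −0.244 with the enteric neuron list in set M and −0.583 in set MT. These became −0.259 and −0.291 without the libraries farthest from the Chga median, and −0.0294 and −0.133 without the libraries high in pancreas genes. Neurod1 had r = −0.563 in set MT (adjusted permutation p = 0.0758). Tph1 and the 3 mast cell genes had r = −0.113 in set M and 0.136 in set MT.

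**Figure D4:**
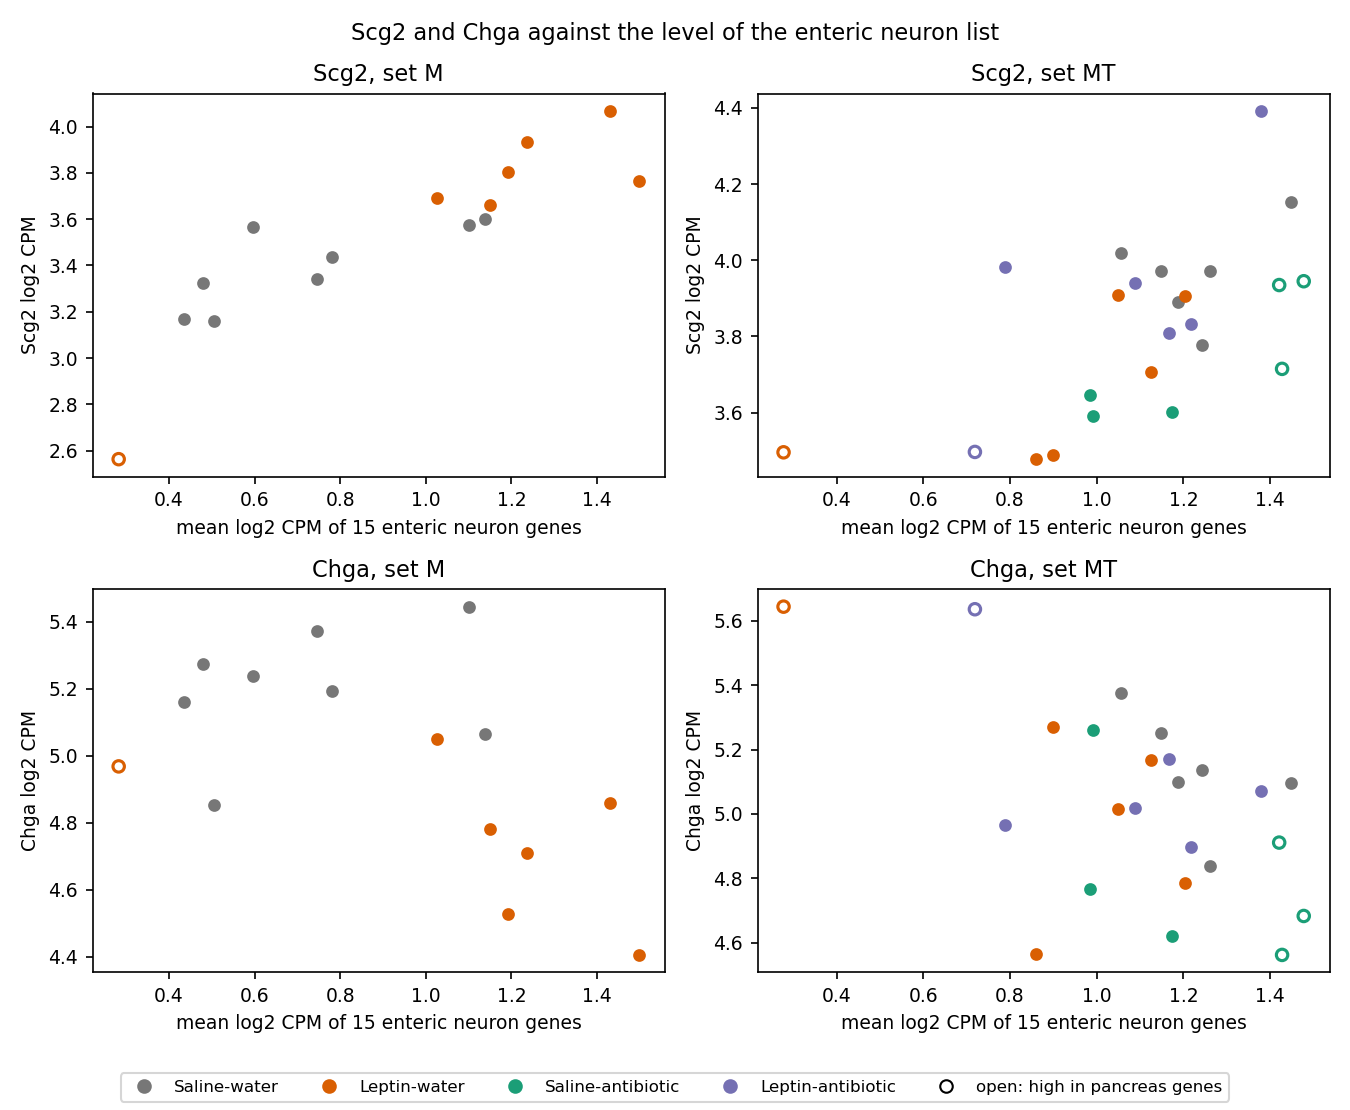
Scg2 (upper panels) and Chga (lower panels) in log2 CPM (y axis) against the mean log2 CPM of 15 enteric neuron genes (x axis), in set M (left) and set MT (right). Points are libraries coloured by group, and open points are high in pancreas genes. Group means are not removed here, unlike in the correlations. Scg2 tends to be higher where the neuron list is higher in both sets, though the correlations did not pass after adjustment. Within set M, Leptin-water 6 is lowest in Scg2 and in the neuron list.

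The genes whose library-to-library pattern was most like each of the 8 were ranked among the 13126 genes that averaged log2 CPM 1 or more, by the lower of the r in set M (15 libraries) and in set MT (24 libraries). For Chga they were Reg4 (r = 0.825 and 0.823), a lectin gene also made by enteroendocrine cells, Trpa1 (0.786 and 0.838), an irritant channel of enterochromaffin cells, and Gcg (0.794 and 0.758), the proglucagon gene. For Chgb they were Chga, Trpa1 and Reg4, and for Pcsk1 Reg4, Gcg and Ube2e3. For Tph1 they were Sct (0.712 and 0.698), the secretin gene, followed by Plpp3 and Col6a5. Scg2 was most like Spock2 (0.796 and 0.773), Sparcl1 (0.796 and 0.735) and Synpo2 (0.783 and 0.726), a smooth muscle actin-binding gene. Neurod1 was most like Mtfmt (0.520 and 0.630) and Scg3 most like Nat14 (0.594 and 0.586), both with lower r. Scg5 was below the level of the ranking.

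Other genes of the same cells were described from lists. The list of granule and peptide processing genes (20 of 20 measured) held 10 positive and 10 negative genes for leptin on water in set M, with a median log2 fold change of 0.01 and 0 called by edgeR. Of them 7 had an unadjusted p under 0.05, where 14.9% of all genes did, and DESeq2 called 2, Cpe and Ptprn2 (1.73% of all genes). Cpe, the carboxypeptidase that trims prohormone fragments, was at 33.6 ± 3.69 CPM with saline and 48.1 ± 11.9 CPM with leptin (log2 0.51, edgeR adjusted p = 0.129). Ptprn2, a granule membrane phosphatase, was at −0.33 (adjusted p = 0.141). In set MT the lowest p-values of the list for leptin on water belonged to Pcsk1n, an inhibitor of Pcsk1, at −0.50, and Rab27a, a granule docking GTPase, at 0.37 (adjusted p = 0.622 for each), with 0 of 20 called. There too 7 of the 20 had an unadjusted p under 0.05, where 7.31% of all genes did. Between the sets, the leptin effect on Ptprn2 differed by 0.56 (adjusted p = 0.0852) and that on Rab3c, a vesicle GTPase, by −0.71 (adjusted p = 0.0974). By edgeR 0 of 20 passed, with 8 at an unadjusted p under 0.05 (9.86% of all genes). DESeq2 called 3 of the list for that difference, Ptprn2, Rab27a and Rab3c, where it called 0.459% of all genes.

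Of 15 serotonin genes 14 were measured, and 2 rose with antibiotic in leptin mice, where 2.28% of all genes passed. Slc18a1, the vesicular monoamine transporter of enterochromaffin cells, was at 9.60 ± 1.34 CPM on water and 13.2 ± 2.02 CPM on antibiotic (SD, n = 6 each, log2 0.47, edgeR adjusted p = 0.0486). Maob, a monoamine oxidase, was at 70.0 ± 11.9 and 110 ± 12.1 CPM (log2 0.67, adjusted p = 0.0245). Maob ranged from 55.3 to 88.5 CPM on water and from 98.4 to 130 CPM on antibiotic. Slc18a1 ranged from 7.93 to 11.3 CPM on water and from 10.7 to 15.8 CPM on antibiotic. Both calls changed when libraries were left out. Leaving out 1 of the 24 libraries of set MT ended the call of Slc18a1 for 18 libraries, all but Saline-water 13, Leptin-water 12, Saline-antibiotic 5 and 6 and Leptin-antibiotic 4 and 6 (adjusted p up to 0.164), and that of Maob for 5 (Leptin-water 8, 9 and 11 and Leptin-antibiotic 2 and 3, adjusted p up to 0.0984). Without the libraries high in pancreas genes the adjusted p-values were 0.0868 and 0.0722 at log2 fold changes of 0.45 and 0.65. With the tissue means as covariates they were 0.25 and 0.134, at 0.45 and 0.76. The smooth muscle list had 6 of 6 genes positive in this comparison (median 0.39, 6 at an unadjusted p under 0.05, 1, Actg2, called), and its part in these values was not tested. In saline mice Maob had a log2 fold change of 0.62 with antibiotic (edgeR adjusted p = 0.0917) and was called by DESeq2 (1.12% of all genes). For leptin on antibiotic Slc18a1 was at 0.35 (adjusted p = 0.172) and 0 of 14 genes passed, 1 at an unadjusted p under 0.05 and 0 by DESeq2.

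For leptin on water in set M, 0 of the 14 serotonin genes passed by edgeR and 4 had an unadjusted p under 0.05 (14.9% of all genes). DESeq2 called Trpa1, where it called 1.73% of all genes. Trpa1 was at 5.20 ± 0.599 CPM with saline and 3.68 ± 1.02 CPM with leptin (log2 −0.50, edgeR adjusted p = 0.158). Pcbd1, which recycles the cofactor of Tph1, was at −0.17 (adjusted p = 0.209).

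Of 10 gut hormone genes 9 were measured. For leptin on water in set M all 9 were negative, with a median of −0.22, against −0.01 over all genes, and in set MT 5 of 9 were positive. On antibiotic 8 of 9 were positive with leptin, with a median of 0.31, and for antibiotic in saline mice 7 of 9 were negative, with a median of −0.31. In each of these comparisons 0 of 9 passed by edgeR and by DESeq2, with 5, 1, 1 and 1 genes at an unadjusted p under 0.05 (14.9%, 7.31%, 17.2% and 12.5% of all genes). The lowest p-values in set M belonged to Gcg, at 2.67 ± 0.718 and 1.79 ± 0.417 CPM (log2 −0.57, adjusted p = 0.175), and Sct, at 15.3 ± 2.48 and 12.5 ± 1.45 CPM (log2 −0.29, adjusted p = 0.186). On antibiotic Sct was at 0.43 (adjusted p = 0.172) and Cck, cholecystokinin, at 0.25 (adjusted p = 0.348). The libraries high in pancreas genes are in these groups as well, and their part in the hormone values was not tested.

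All 16 enteroendocrine transcription factors of a further list were measured. For leptin on water in set M 13 of 16 were negative (8448 of 16333 over all genes), with a median of −0.23. By either tool 0 passed, and 3 had an unadjusted p under 0.05 (14.9% of all genes). Fev, the factor of serotonin cells, was at 1.05 ± 0.171 CPM with saline and 0.729 ± 0.204 CPM with leptin (log2 −0.52, edgeR adjusted p = 0.196), and Hhex, known from somatostatin cells, at −0.43 (adjusted p = 0.187). On antibiotic 10 of 16 were negative with leptin (8757 of 16340 over all genes). Rfx3, a factor of the RFX family, was at −0.20 with antibiotic in leptin mice (edgeR adjusted p = 0.076). DESeq2 called it, as it did 5.22% of all genes.

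Between the Saline-water libraries of set MT and set M, where 17.3% of all genes passed, several genes of these lists differed by edgeR. Of 20 granule genes 4 were higher in set MT, namely Rab3c (log2 0.76, adjusted p = 2.7e-05), Snap25, a membrane fusion gene (0.60, adjusted p = 0.00902), Cpe (0.54, adjusted p = 0.0093) and Rab3b (0.69, adjusted p = 0.0399), and Ptprn2 was lower (−0.29, adjusted p = 0.0162). Of the serotonin genes Slc18a2, the other vesicular monoamine transporter (0.32, adjusted p = 0.00828), and Htr3a, a subunit of the serotonin-gated channel (0.77, adjusted p = 0.0395), were higher. Rfx3 was higher (0.24) and Mlxipl, a glucose-responsive factor, lower (−0.28). The gastrin gene Gast was lower (−2.38, adjusted p = 0.0385). The stomach and Brunner gland list had 0 of 10 genes positive, with a median of −0.77 and 2 called lower, Tff1 (−2.31) and Sult1c2 (−0.52), and its part in the Gast value was not tested. Leaving out 1 library ended the call of Rab3b for 8 Saline-water libraries (1, 2, 4, 5, 9, 10, 12 and 13), of Htr3a for 9 (1, 2, 4, 5, 6, 7, 10, 12 and 14) and of Gast for 7 (3, 4, 9, 10, 11, 12 and 14). With the tissue means as covariates, Htr3a was at 0.11, and of the genes named here Rab3c (0.44, adjusted p = 0.0485) and Ptprn2 (−0.49, adjusted p = 0.00632) still passed.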

How the data were processed

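Per the submitters' processing notes, FastQC, HISAT2, featureCounts and edgeR 3.42.0 were used with the mm10 build. Libraries used 150 ng of total RNA each, kept strand information and were depleted of ribosomal RNA, per the labels' protocols. The values used are the authors' deposited read counts per gene symbol, described as filtered. How the table was filtered and whether strand was used in counting is not given in the sources used here, so reads of overlapping antisense genes may be included. A library's total sets the counting precision of each value.

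The counts were tested by edgeR's quasi-likelihood method (edgeR 4.0.16 in R 4.3.3) with TMM factors and filterByExpr. The Benjamini-Hochberg adjustment covered every gene in the fit, and the threshold was 0.05. Set M was fitted alone, set MT with its 4 groups in 1 fit, and the sets together over the 27 water libraries. Each standard error is the absolute log2 fold change divided by the root of its F statistic. Correlations used log2 CPM (prior count 2) and permuted libraries within groups. RPKM used exon lengths and positions of GENCODE vM21. The scripts were tested on simulated data with 200 changed genes. Alternatives were DESeq2 1.42.0, upper quartile scaling, no filter on low counts, leaving out libraries with an exocrine pancreas mean over 4 log2 CPM, tissue means as covariates, a replicate block and leaving out each library. The genes and lists were chosen with earlier results of these data known. All 8 genes were tested in every comparison, and those that differed by less than their SE are given without a value. From the other lists the genes past the threshold are named, otherwise examples from the 2 with the lowest p.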

Additional observations from a re-analysis of the deposited data

Results flagged for a closer look

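In 48 groups of libraries (8 genes, 6 groups of 6 to 8 libraries) 4 had an extreme library far from the others by Dixon's criterion. Chance flags about 1 in 20 groups. Chga was at 49.7 CPM in Leptin-antibiotic 3, with the next library at 36.0 CPM. Scg2 was at 5.87 CPM in Leptin-water 6 of set M, the lowest of its group, with the next library at 12.6 CPM. Both of these libraries are high in pancreas genes. Chgb was at 74.0 CPM in Saline-water 9, with the next library at 60.5 CPM. Tph1 was at 27.8 CPM in Saline-antibiotic 6, with the next library at 19.2 CPM.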

How the results depend on the processing

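Of 72 fold changes of the 8 genes, 42 exceeded their SE. Over 1222 alternative values of these 42, 1197 kept direction and side of the threshold, 8 came to pass, 13 no longer passed and 4 changed sign. With tissue means as covariates, Scg2 (−0.060) and Scg3 (−0.033) changed sign for leptin on water in set M, as did Pcsk1 (−0.084) between the sets with saline. Without the libraries high in pancreas genes, Scg3 changed sign for antibiotic in saline mice (−0.020). The cause was not tested. For leptin on water in set M, 0 genes passed in the main test, 2 by DESeq2 and 2 without the library high in pancreas genes. Leaving out 1 library gave 0 to 2 genes there, 0 to 1 for the difference between sets, 1 to 2 for set MT against set M, and 0 elsewhere. With tissue means as covariates, 0 of 8 passed between the sets. The 8 correlated pairs of set MT became 0 without the libraries high in pancreas genes, where fewer libraries were tested.

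With the replicate block 0 of 8 genes passed. Chga was at −0.41 in set M (adjusted p = 0.13) and 0.32 on antibiotic (adjusted p = 0.257). Pairing of equal numbers was not seen, though so few pairs cannot exclude it. The correlation of their deviations passed 0.1 in 3 of 7 pairs in set M, 0 of 5 in set MT on water and 1 of 6 on antibiotic (that pair at r = 0.503). Not every library was most like its own number. Over all genes the block left 4 calls in set M, 0 in both sets together and 13 for leptin on antibiotic, where the main tests had 5, 51 and 84.

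Counts over all genes moved by more than 1.5 times in several settings. Across the other alternatives they ran from 0 to 277 for leptin in set M, 0 to 5 in set MT, 0 to 173 in both sets, 0 to 75 for the difference between sets, 0 to 410 for leptin on antibiotic, 17 to 183 and 13 to 787 for antibiotic in saline and in leptin mice, and 1486 to 3212 between the sets. Without length scaling the median level of Tph1 (20.8 CPM) was above that of Scg2 (13.1 CPM). Scg3 and Scg5 had 151 counts or fewer per library.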
